A study of Saccharomyces cerevisiae with 4 samples.

Results

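The genes described here are 33 heat shock, chaperone and general stress genes of Saccharomyces cerevisiae, chosen by name from the 6664 nuclear genes listed in the deposited tables. Their transcripts were measured in SK1 cells, from a background used for its efficient sporulation, that had spent 4 h at 30 °C in sporulation medium. The sample titles give 2 ndt80 samples and 2 ndt80pch2 samples. NDT80 encodes the transcription factor needed to leave meiotic prophase; its deletion is shared by both strains, and no strain with an intact NDT80 was analysed here. PCH2 encodes an AAA+ ATPase of meiotic chromosomes, and the comparison asks what its loss does to the transcriptome of arrested cells. A label field of the ndt80pch2 samples names only the NDT80 deletion; the titles name both.

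Chaperones bind unfolded proteins and help them fold, reach their compartment or leave an aggregate. In yeast many of them are driven by Hsf1, a factor that binds inverted repeats of the unit GAA (heat shock elements, HSE). A second, partly overlapping set of stress genes is driven by the related factors Msn2 and Msn4, which bind the stress response element (STRE, AGGGG) and are held out of the nucleus by protein kinase A when nutrients are plentiful. Sporulation medium, with acetate and no nitrogen source, is a condition in which that restraint is known to be low. The 33 genes were therefore read as 17 Hsf1-type chaperones, 13 Msn2/4-type genes and 3 others (HSP30, SOD1 and MSN4). Several genes, among them HSP104, HSP42, HSP78, HSP26, SSA3, SSA4 and SSE2, are known to respond to both factors.

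The control elements were visible in the R64 reference sequence before the start codons. The stretches below are examples of these elements, and a single promoter could hold both kinds. They run 5′ to 3′ on the gene's own strand, with the HSE units (TTC and GAA) in capitals in the first 3 and the STRE (AGGGG, or CCCCT where it lies on the other strand) in capitals in the remaining 5. HSP82 and SSA1 encode an Hsp90 and an Hsp70, and HSP104 the disaggregase. In the 500 bases before their start codons, HSP82, HSP104 and SSA1 also had 2, 3 and 2 STRE matches. HSP12, CTT1, SIP18, PNC1 and DDR2 are the Msn2/4-type genes to which the results below return. Of these, CTT1 and DDR2 each also had 1 pair of HSE units in that window.
HSP82, chrXVI:98845-98868, minus strand: tcttttttTTCtaGAAcgccgtgg
HSP104, chrXII:88313-88346, plus strand: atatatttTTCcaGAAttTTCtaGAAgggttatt
SSA1, chrI:141770-141803, minus strand: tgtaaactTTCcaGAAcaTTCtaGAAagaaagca
HSP12, chrVI:106813-106891, plus strand: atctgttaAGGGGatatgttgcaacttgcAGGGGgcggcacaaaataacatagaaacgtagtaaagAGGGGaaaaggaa
CTT1, chrVII:654248-654283, plus strand: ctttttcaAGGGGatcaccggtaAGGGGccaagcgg
SIP18, chrXIII:610620-610659, plus strand: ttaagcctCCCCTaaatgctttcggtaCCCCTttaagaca
PNC1, chrVII:428163-428264, minus strand: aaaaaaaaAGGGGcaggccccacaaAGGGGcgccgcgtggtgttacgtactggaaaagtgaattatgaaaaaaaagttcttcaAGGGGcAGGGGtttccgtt
DDR2, chrXV:231918-232011, minus strand: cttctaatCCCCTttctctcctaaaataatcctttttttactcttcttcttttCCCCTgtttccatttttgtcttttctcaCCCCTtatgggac

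Over the 500 bases before each start codon and on both strands, 3 contiguous HSE units (GAA NN TTC NN GAA or TTC NN GAA NN TTC, written without the gaps) were found in 12 of the 17 Hsf1-type chaperones (70.6%), in 0 of the 13 Msn2/4-type genes and in 1.48% of all 6006 promoters read. The shorter pair of units (GAA NN TTC or TTC NN GAA), which every longer element contains, was found before all 17 Hsf1-type chaperones and before 6 of the 13 Msn2/4-type genes, against 35.2% of all promoters. The STRE was found before 11 of the 13 Msn2/4-type genes (84.6%), before 6 of the 17 Hsf1-type chaperones (35.3%) and before 34.1% of all promoters. SSA3 and GRE1 were the Msn2/4-type genes without an STRE in this window. The groups were assigned from the known control of these genes, so this split is a description of the sequences and no independent evidence for the groups.

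**Figure D1:**
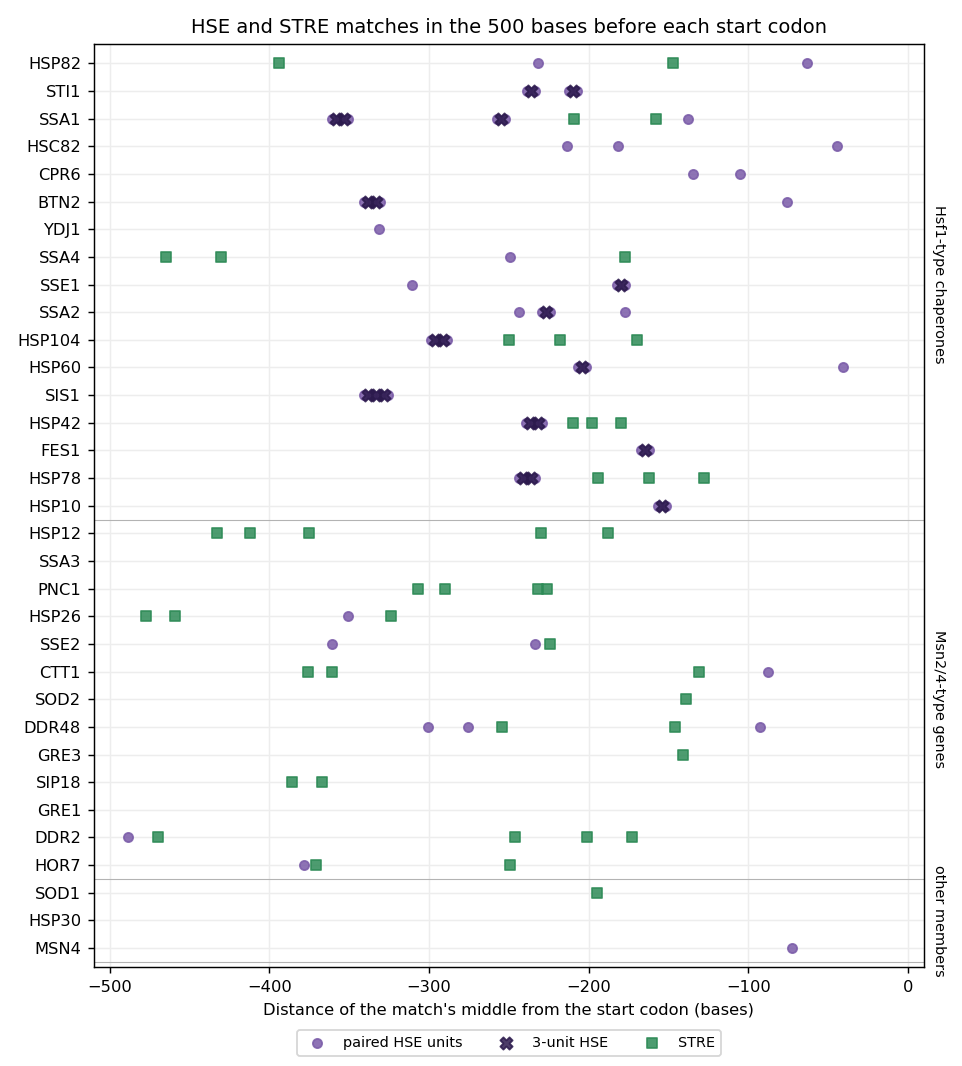
Matches of the paired HSE units, the 3-unit HSE and the STRE before each of the 33 genes, plotted by distance of the match from the start codon in bases. The 3-unit HSE was found before 12 of 17 Hsf1-type chaperones and before 0 of 13 Msn2/4-type genes; the STRE was found before 6 and 11 of them.

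Each strain was deposited as 1 column of values that averages both libraries, and the libraries were separated by solving each value for whole reads. The ndt80 libraries are named A and B and the ndt80pch2 libraries C and D; none of them can be tied to a replicate number. The labels do not say whether the samples of a strain were separate cultures, so p-values measure only the spread between these libraries, which may be technical. The libraries held between 1737793 and 2404947 recovered reads on nuclear genes, and all 33 genes had a value in all 4 libraries. Levels are given in TPM, which divide reads by coding length and then by the library's total of reads per length, and so can be compared between genes. NDT80 had 0 reads in all 4 libraries, and PCH2 had 710 and 776 reads in A and B and 0 in C and D, as the titles say. The 12 meiotic prophase markers were all present, with means from 90.8 to 1000.3 TPM (IME2 highest) and a sum between 6763 and 7817 TPM in the 4 libraries. The 10 genes known to depend on Ndt80 summed to between 894 and 944 TPM. Of the 8 haploid and mating genes, MFA1 and MFA2 had no read in any library. All 8 summed to between 50.5 and 78.7 TPM, with STE4 highest at a mean of 15.2 TPM. The 8 markers of dividing cells summed to between 483 and 605 TPM, most of it from HTA1 with a mean of 474 TPM. The 7 of them with a mean of at least 1 TPM had a median of 6.57 TPM.

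Across the 5781 genes with a mean of at least 1 TPM, the median log2 fold change, ndt80pch2 minus ndt80, was -0.15. Fold changes called relative below are set against that median, while the p-values are of the fold changes before it is subtracted. On that relative scale 50% of all tested genes lay above 0, but 87% of the 284 genes with a mean of at least 500 TPM did, with a median of 0.18. The libraries of the ndt80pch2 strain also differed more from each other (median absolute difference 0.20 on the log2 scale between D and C) than those of ndt80 did (0.12 between B and A). Most of the 33 genes are abundant, so both facts stand beside what follows, and their part in it was not tested.

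None of the 33 genes passed the test between the strains. With limma-trend on log2(TPM + 1) and Benjamini-Hochberg adjustment over all tested genes, 0 of 33 were called, where 0.0173% of all tested genes were (PCH2 alone). With limma-voom on the recovered reads 0 of 33 were called, where 0.45% of all tested genes were. With median-of-ratios scaling in place of equal totals, 0 of 33 were called as well. At an unadjusted p under 0.05, limma-trend placed 2 of the 33 higher in ndt80pch2 (SIP18 and HOR7) and 1 lower (DDR2), beside 2.68% of all genes higher and 13.1% lower. A missed threshold with 2 libraries a strain does not show that the levels were equal.

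Together the 33 genes made up a large part of the messenger RNA. They summed to 8.82% and 8.83% of the TPM total in libraries A and B, and to 9.09% and 10.3% in C and D. That total is the fixed sum to which TPM values are scaled. The solved nuclear genes made up 928993 and 941773 TPM of it in A and B, and 917082 and 949877 TPM in C and D. HSP12, which encodes a small membrane-associated stress protein, was the most abundant gene of the whole list and alone gave 3.58% and 3.77% in A and B and 3.90% and 4.97% in C and D. The 17 Hsf1-type chaperones summed to between 3.33% and 3.55%, with library D lowest. The 12 Msn2/4-type genes other than HSP12 summed to 1.49% and 1.48% in A and B and to 1.57% and 1.80% in C and D. The sum over the Msn2/4-type genes was thus highest in library D and that over the Hsf1-type chaperones lowest there. In bulk RNA, a change in the number of cells of a kind and a change of RNA per cell cannot be told apart.

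**Figure D2:**
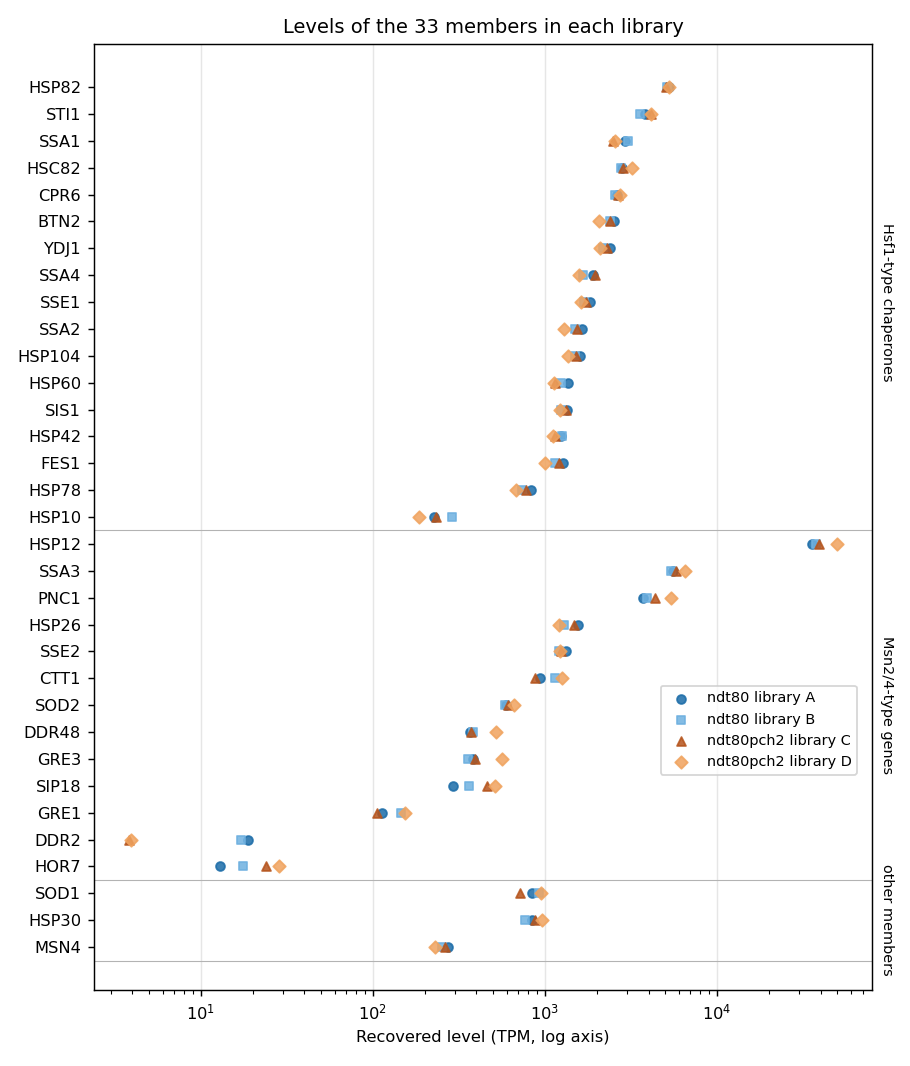
Level of each of the 33 genes in the 4 libraries, in TPM on a log axis, with 1 symbol per library and the genes grouped by kind of control. Hsf1-type chaperones spanned means of 233 to 5163 TPM and Msn2/4-type genes 10.9 to 40575 TPM, and the 4 symbols of most genes lie close together.

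Levels of the Hsf1-type chaperones were close to each other across the strains. On the TPM scale 15 of 17 had a mean of at least 1000, and their relative log2 fold changes ran from -0.16 (HSP10) to 0.32 (STI1) with a median of 0.045. Of the 17, 13 lay above 0, beside 50% of all tested genes and 87% of the abundant ones. After the libraries were set to equal medians, 5 of 17 had both ndt80pch2 libraries above both ndt80 libraries (HSP82, HSC82, SIS1, STI1 and CPR6), where 22.5% of all tested genes and 61.3% of the abundant ones did. SSA1 had both below, where 21.7% of all genes and 4.93% of the abundant ones did. On the TPM scale the libraries did not overlap for 3 of 17 higher in ndt80pch2 (HSC82, STI1 and CPR6), beside 9.44% of all tested genes and 29.9% of the abundant ones, and for 3 of 17 lower (HSP42, HSP60 and SSA1), beside 42.4% and 17.3%.

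The Hsp90 genes were among the highest. HSP82, the heat-inducible Hsp90, stood at 5226 and 5125 TPM in A and B and at 5030.2 and 5272 TPM in C and D. HSC82, its constitutive copy, stood at 2818 and 2765 TPM in A and B and at 2831 and 3190.1 TPM in C and D. For HSP82 the strains overlapped on the TPM scale; for HSC82 library D stood apart above the other 3, and C lay just above A. The log2 fold change of HSC82 was 0.11 ± 0.11 (SE), or 0.25 relative to the median gene, with an adjusted p of 0.630 in limma-trend. Without library D the relative value was 0.15. The coding sequences of HSP82 and HSC82 are 91.7% identical with a longest identical run of 113 bases, and no source used here says how the authors counted reads that match both. Their sum, 8044 and 7890 TPM in A and B against 7861 and 8462 TPM in C and D, overlapped between the strains.

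The Hsp90 partners STI1 and CPR6, with HSC82, had the 3 highest relative fold changes of the Hsf1-type group. STI1, which hands clients from Hsp70 to Hsp90, stood at 3804 and 3557 TPM in A and B and at 4117 and 4154 TPM in C and D. CPR6, a cyclophilin that binds Hsp90, stood at 2608 and 2547 TPM in A and B and at 2666 and 2729 TPM in C and D. For both genes every ndt80pch2 library lay above every ndt80 library. The log2 fold change of STI1 was 0.17 ± 0.11 (SE), 0.32 relative, with an adjusted p of 0.458 in limma-trend and 0.326 in limma-voom; that of CPR6 was 0.066 ± 0.10 (SE), 0.21 relative, with an adjusted p of 0.746 in limma-trend.

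Among the Hsp70 genes the near-identical pair SSA1 and SSA2, the constitutive cytosolic Hsp70s, had slightly lower means in ndt80pch2 on the TPM scale. SSA1 was at 2903 and 3052 TPM in A and B and at 2499 and 2568 TPM in C and D. SSA2 was at 1639.9 and 1500.5 TPM in A and B and at 1532 and 1283 TPM in C and D. The strains did not overlap for SSA1, with a log2 fold change of -0.23 ± 0.10 (SE), -0.085 relative (-0.046 without library B), and an adjusted p of 0.327 in limma-trend. For SSA2 the strains overlapped, and its log2 fold change of -0.16, -0.015 relative, was near the -0.15 of the median gene. The pair is 96.4% identical with a longest identical run of 383 bases, so the split between them is uncertain. Their sum was 4543 and 4553 TPM in A and B and 4031 and 3851 TPM in C and D.

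SSA4, the Hsp70 gene known for its strong heat induction, stood at 1899 and 1666 TPM in A and B and at 1955 and 1582 TPM in C and D. Within each strain 1 library was high and the other low, and the strains overlapped. The nucleotide exchange factors of Hsp70 overlapped as well. SSE1, an Hsp110, had means of 1753 ± 90.8 and 1679 ± 82.2 TPM (SD, n = 2) in ndt80 and ndt80pch2. FES1 stood at 1269 and 1142 TPM in A and B and at 1210.0 and 998 TPM in C and D. YDJ1 and SIS1 encode the J-proteins (Hsp40s) that start the Hsp70 cycle. YDJ1 had means of 2282 ± 170.0 and 2190.5 ± 145 TPM and SIS1 of 1289.6 ± 82.6 and 1275 ± 79.7 TPM (SD, n = 2), with overlapping strains for both on the TPM scale.

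The genes that act on aggregates differed little between the strains. HSP104, the disaggregase whose heat shock elements are printed above, stood at 1605 and 1489 TPM in A and B and at 1519 and 1365 TPM in C and D. BTN2, a sequestering factor, stood at 2533 and 2382 TPM in A and B and at 2400.5 and 2073 TPM in C and D. HSP42, a small heat shock protein that gathers misfolded proteins into aggregates, stood at 1234 and 1250.1 TPM in A and B and at 1149.7 and 1118 TPM in C and D. HSP104 and BTN2 overlapped between the strains. HSP42 did not overlap on the TPM scale but did after the libraries were set to equal medians, with a relative log2 fold change of 0.016.

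Of the mitochondrial chaperones, HSP60 stood at 1352 and 1231 TPM in A and B and at 1147 and 1129 TPM in C and D. Its partner HSP10 stood at 226 and 288 TPM in A and B and at 231 and 184 TPM in C and D. HSP78, the mitochondrial relative of Hsp104, had means of 783 ± 63.1 and 727 ± 66.5 TPM (SD, n = 2). HSP60 was lower in both ndt80pch2 libraries on the TPM scale and overlapped after equal medians; HSP10 and HSP78 overlapped on both. HSP10 rested on between 81 and 174 reads per library, the fewest of the Hsf1-type group.

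The Msn2/4-type genes lay further from 0. Their relative log2 fold changes had a median of 0.30, against 0.045 for the Hsf1-type chaperones, 0 for all tested genes by construction and 0.18 for the abundant ones. Of the 13 genes, 12 lay above 0 and DDR2 below, a share near the 87% of the abundant genes. After equal medians, 9 of 13 had both ndt80pch2 libraries above both ndt80 libraries, where 22.5% of all tested genes and 61.3% of the abundant ones did, so the share was near that of abundant genes. However, DDR48, GRE1, GRE3, SIP18, HOR7 and DDR2 had means under 500 TPM and lay outside the abundant class. The shares of that class are thus not matched to this group in level. On the TPM scale 7 of 13 did so, where 9.44% of all tested genes and 29.9% of the abundant ones did; DDR48 and SSE2 made the difference. DDR2 alone had both ndt80pch2 libraries below on either scale. The median depended on library D: without it the value was 0.19, and without library C it was 0.44. The 12 meiotic prophase markers had a median of 0.24 on the same relative scale. After equal medians 8 of 12 were higher in both ndt80pch2 libraries and 1 was lower in both, and limma-voom called 1 of the 12 lower. The part of this difference in the values of the Msn2/4-type genes was not tested.

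**Figure D3:**
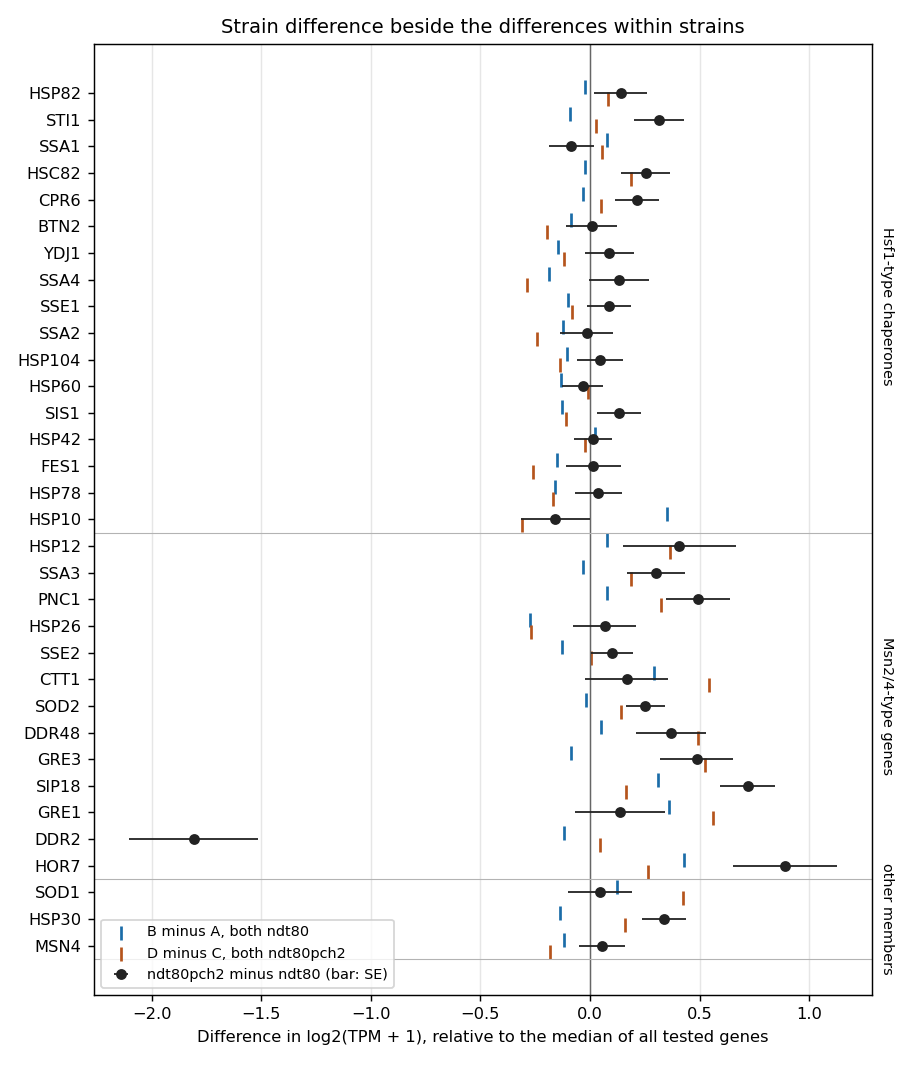
Relative log2 fold change of each gene between the strains (black points, bars are SE), with the differences B minus A and D minus C within the strains as coloured ticks. Points of the Msn2/4-type genes lie mostly to the right of 0, from 0.067 (HSP26) to 0.89 (HOR7), with DDR2 at -1.81 on the left, and for CTT1, GRE1, DDR48, GRE3 and, on the other side of 0, HSP26 the D minus C tick lies further from 0 than the point.

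HSP12 carried between 18032 and 23435 reads per library. Its level was 35827 and 37746 TPM in A and B and 38999 and 49726 TPM in C and D. Both ndt80pch2 libraries lay above both ndt80 libraries, but C lay close to B and D stood apart. Its log2 fold change was 0.26 ± 0.26 (SE), 0.41 relative, with an adjusted p of 0.602 in limma-trend and 0.258 in limma-voom. The relative value was 0.21 without library D and 0.59 without C. With 5 STRE matches in its 500 bases, it had more of them than any other of the 33 genes.

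SIP18, which encodes a desiccation-protective hydrophilin, had the largest relative fold change among the genes with over 100 reads in every library. It stood at 293 and 363 TPM in A and B and at 461 and 512 TPM in C and D, with no overlap between the strains. The log2 fold change was 0.57 ± 0.13 (SE), 0.72 relative, with an adjusted p of 0.256 in limma-trend and 0.0990 in limma-voom. GRE1, which encodes a related hydrophilin, stood at 114 and 146 TPM in A and B and at 106 and 154 TPM in C and D. There 1 library of each strain was low and the other high, and the strains overlapped.

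PNC1, the nicotinamidase that keeps the sirtuin inhibitor nicotinamide low, stood at 3723 and 3920 TPM in A and B and at 4359 and 5402 TPM in C and D. GRE3, an aldose reductase, stood at 382 and 359 TPM in A and B and at 393 and 560.1 TPM in C and D. Neither gene overlapped between the strains. Library D stood apart for both, and for GRE3 library C lay close to A. The log2 fold change of PNC1 was 0.35 ± 0.14 (SE), 0.49 relative, with an adjusted p of 0.318 in limma-trend and 0.149 in limma-voom; that of GRE3 was 0.34 ± 0.17 (SE), 0.49 relative, with an adjusted p of 0.350 in limma-trend. Without library D the relative values were 0.32 for PNC1 and 0.21 for GRE3, and without C they were 0.65 and 0.75.

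Of the Msn2/4-type chaperones, SSA3, a stress-induced Hsp70, stood at 5562 and 5420.5 TPM in A and B and at 5758 and 6488 TPM in C and D. It was the second most abundant gene of the group and more abundant than the 3 other SSA genes. HSP26, a small heat shock protein, stood at 1554 and 1283 TPM in A and B and at 1474 and 1210.4 TPM in C and D. SSE2, the stress-induced Hsp110, had means of 1271 ± 82.4 and 1230.3 ± 5.93 TPM (SD, n = 2). SSA3 did not overlap between the strains, with a relative log2 fold change of 0.30 (0.20 without library D) and an adjusted p of 0.55 in limma-trend, while HSP26 and SSE2 overlapped on the TPM scale. The coding sequences of SSA3 and SSA4 share 76.4% of their bases, with a longest identical run of 17 bases.

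The antioxidant genes split. CTT1, the cytosolic catalase, stood at 935 and 1140.5 TPM in A and B and at 872 and 1257 TPM in C and D. SOD2, the mitochondrial superoxide dismutase, stood at 596 and 586 TPM in A and B and at 608 and 663 TPM in C and D. SOD1, the cytosolic superoxide dismutase and one of the 3 genes outside both groups, stood at 845 and 919 TPM in A and B and at 714 and 946 TPM in C and D. CTT1 and SOD1 were lowest in C and highest in D, so the strains overlapped; SOD2 did not overlap, with a relative log2 fold change of 0.25 and an adjusted p of 0.548 in limma-trend.

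DDR48, a stress protein, stood at 369 and 381 TPM in A and B and at 370.4 and 516 TPM in C and D, again with library D apart from the other 3. Its relative log2 fold change was 0.37 with all libraries, 0.11 without D and 0.62 without C. DDR2 and HOR7, a related pair of small stress proteins, are the shortest of the 33 genes and had almost no reads. DDR2 had 6 reads in each of A and B and 1 in each of C and D. Its ratio between the strains was 0.217, with a 95% interval of 0.0236 to 0.974 that covers counting error only (exact Clopper-Pearson on the pooled reads, 12 against 2). The adjusted p was 0.174 in limma-trend and 0.317 in limma-voom, and the ndt80pch2 levels lay under the value of 3 reads, 11.5 TPM in C. HOR7 had 4 and 6 reads in A and B and 6 and 7 in C and D, a ratio of 1.69 with an interval of 0.685 to 4.31. Both have a coding length of under 200 bases, a class of 130 genes whose median was 0 TPM and of which 125 lay under 50 TPM.

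HSP30, which encodes a plasma membrane protein that restrains the proton pump, stood at 844 and 765 TPM in A and B and at 873 and 964 TPM in C and D. Its strains did not overlap, with a log2 fold change of 0.19 ± 0.10 (SE), 0.34 relative, and an adjusted p of 0.369 in limma-trend. MSN4, one of the paired STRE-binding factors, stood at 273 and 251 TPM in A and B and at 263 and 229 TPM in C and D, with overlap. Neither HSP30 nor MSN4 had an STRE in its 500 bases. The partner factor MSN2 (113.5 ± 6.27 against 112 ± 16.5 TPM, SD, n = 2) and HSF1 itself (155 ± 7.96 against 146 ± 25.1 TPM, SD, n = 2) also overlapped.

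The groups also diverged between the libraries of 1 strain. Between D and C the Msn2/4-type genes had a median difference of 0.26 on the log2 scale, with 12 of 13 higher in D. Over all tested genes the median was 0.012, with 2990 of 5781 higher in D. The abundant genes had a median of 0.12, with 204 of 284 higher in D, and the prophase markers a median of 0.19, with 12 of 12 higher, so higher levels in D were not particular to the Msn2/4-type genes. The Hsf1-type chaperones had a median of -0.11, with 12 of 17 lower in D. Between B and A the medians were 0.050 for the Msn2/4-type genes, with 7 of 13 higher in B, and -0.10 for the Hsf1-type chaperones, with 3 of 17 higher in B. All tested genes had a median of 0.0037 there, with 2940 of 5781 higher in B, and the abundant ones 0.023, with 164 of 284 higher. The gap between the groups, the median deviation of the Msn2/4-type genes minus that of the Hsf1-type chaperones, was -0.22 in A and -0.082 in B, against -0.044 in C and 0.37 in D. The gap in library C was thus closer to that in B than to that in D. An exact permutation test on 2 against 2 libraries cannot go below a two-sided p of 0.333, so no p is given for the gap.

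**Figure D4:**
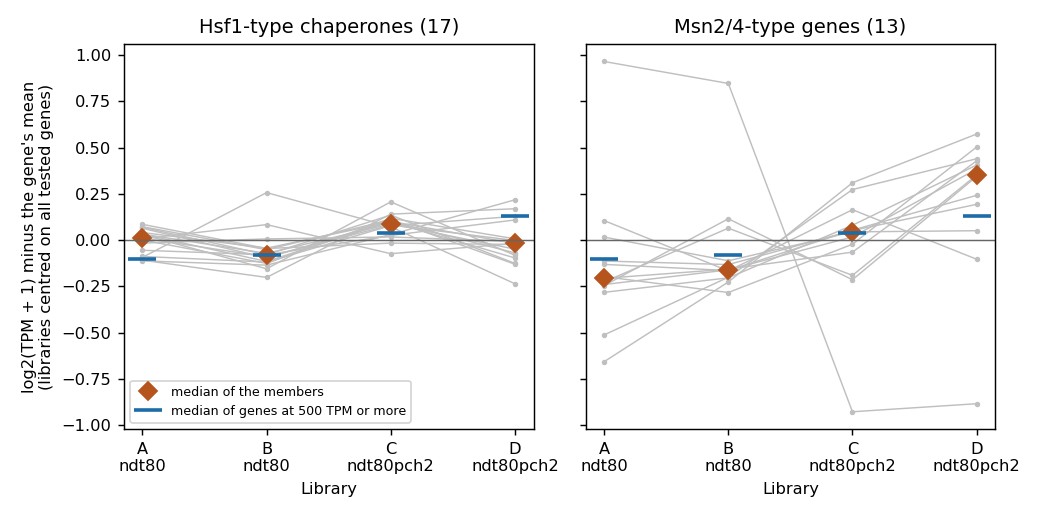
Deviation of each gene from its own mean over the 4 libraries, in log2(TPM + 1) after the libraries were set to equal medians, for the 17 Hsf1-type chaperones (left) and the 13 Msn2/4-type genes (right). Orange diamonds are group medians and blue bars the median of genes with a mean of at least 500 TPM; the right-hand median runs from -0.21 in A to 0.35 in D, while the left-hand one stays between -0.079 and 0.088.

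The other genes of the same pathways were read from lists of known members. Of the 10 lists, none held a gene called by limma-trend. The median relative log2 fold change was 0.036 over 10 Hsp90 co-chaperones, -0.013 over 10 Hsp40 and Hsp70 partners and 0.0072 over 14 subunits of the CCT chaperonin and prefoldin. It was -0.036 over 14 chaperones of the endoplasmic reticulum, -0.085 over 8 ribosome-bound chaperones and -0.016 over 13 mitochondrial chaperones. These lay on either side of 0, the median of all tested genes by construction, and below the 0.045 of the 17 Hsf1-type chaperones. The median was 0.25 over 26 further Msn2/4 targets, nearer to that of the 13 Msn2/4-type genes. Over 28 genes of oxidative defence it was 0.17, about midway between the medians of both groups. Over 25 stress regulators it was 0.072, and over 9 sorting and disaggregation factors 0.071. On the same scale the abundant genes had a median of 0.18 and the 12 meiotic prophase markers 0.24. Medians of 0.17 and 0.25 were thus not particular to the lists that had them.

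Among the further Msn2/4 targets, YGP1, which encodes a secreted glycoprotein made on starvation, rose by limma-voom. It stood at 214 and 171 TPM in A and B and at 292 and 349 TPM in C and D, with a relative log2 fold change of 0.89 and an adjusted p of 0.0129 in limma-voom and 0.256 in limma-trend. After equal medians 15 of these 26 genes had both ndt80pch2 libraries above both ndt80 libraries and 3 had both below. The shares were 22.5% and 21.7% over all tested genes, and 61.3% and 4.93% over the abundant ones. These 26 genes had a median of 214 TPM, so the abundant class is not matched to them in level. Between D and C their median difference was 0.28, with 21 of 26 higher in D, beside 0.12 for the abundant genes and 0.19 for the prophase markers. Of oxidative defence, GTT2, a glutathione transferase, stood at 285 and 299 TPM in A and B and at 392 and 394 TPM in C and D, with an adjusted p of 0.256 in limma-trend, the smallest of this list, and 0.0696 in limma-voom. There the ndt80pch2 libraries lay close together and above both ndt80 libraries.

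Of the stress regulators, BMH1, a 14-3-3 protein that binds phosphorylated factors such as Msn2, stood at 651 and 664 TPM in A and B and at 878 and 820.1 TPM in C and D, with an adjusted p of 0.257 in limma-trend and 0.0854 in limma-voom. In the 6 chaperone lists the gene of smallest p was lower in ndt80pch2, as were most genes at an unadjusted p under 0.05 among all those tested (13.1% lower and 2.68% higher), so this is not particular to chaperones. These were PPT1, the Hsp90 phosphatase (54.3 against 44.8 TPM), HLJ1, an Hsp40 of the endoplasmic reticulum membrane (162 against 115 TPM), PFD1, a prefoldin subunit (20.3 against 8.76 TPM), SIL1, an exchange factor of the endoplasmic reticulum (69.8 against 51.0 TPM), SSB2, the ribosome-bound Hsp70 (493 against 401 TPM), and ZIM17, a helper of mitochondrial Hsp70 (46.4 against 33.7 TPM). None passed either test, with adjusted p from 0.257 to 0.398 in limma-trend. The PFD1 values rested on few reads, 13 and 11 in A and B and 4 in each of C and D. UBR1, a ubiquitin ligase for misfolded proteins in the sorting list, stood at 239 ± 6.03 and 207 ± 6.54 TPM (SD, n = 2), with an adjusted p of 0.317.

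**Figure D5:**
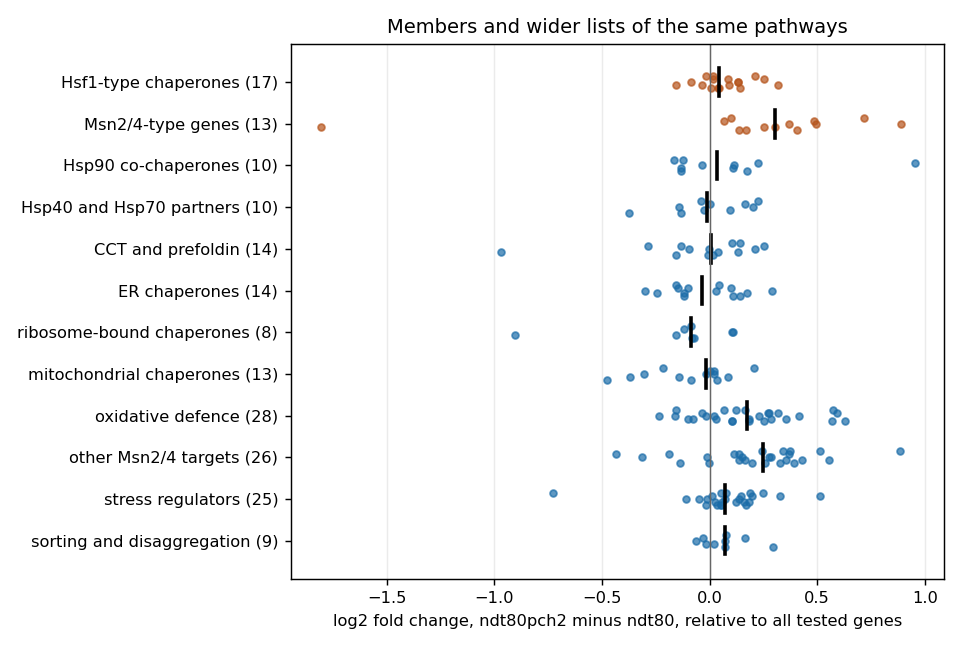
Relative log2 fold change of each gene in the 2 groups of members (orange) and in the 10 lists of further genes of the same pathways (blue), with the number of genes in parentheses and black bars at the medians. The lists of Msn2/4 targets (0.25) and oxidative defence (0.17) have the highest medians of the blue lists; the chaperone lists lie between -0.085 and 0.036.

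The way the deposited columns are read decides how these genes appear. Read row by row as printed, 8 of the 33 genes stood at least 2-fold apart between the strains: STI1, HSP12, SSA3, CTT1, DDR2, SOD2, SIP18 and PNC1. After the libraries were separated, only DDR2 did. HSP12, for instance, stood at 17991 in the deposited ndt80 row and at 36787 ± 1357 TPM (SD, n = 2) after separation, and its ratio between the strains went from 2.47 to 1.21. From the first mitochondrial row on, the deposited ndt80 value of a row was solved as the mean of that gene in library A and another gene in library B, namely the one with that row number once the 18 mitochondrial genes are removed.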

How the data were processed

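Messenger RNA of 2 ndt80 and 2 ndt80pch2 samples was sequenced. The authors deposited 1 unnamed column per strain. Its unit, read from the values as other than counts, is TPM-like (reads per kb of length, scaled by the library total of these, the mean of both libraries). No source used here says how the column was made. FastQC, HISAT2 2.1.0, HTSeq 0.9.1, DESeq2 2.11.40.6 and the R64 (sacCer3) build are named, with no role or order, per the submitters' processing notes. The use of strand is not stated, so antisense reads cannot be told apart.

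Each value times coding length was solved as a sum of whole multiples of 2 steps, 1 per library, to 0.55 of the last of 10 printed digits. This solved 99.9% of the 5983 ndt80pch2 values above 0. The ndt80 column solved 90 of 90 before row 94; from there 99.8% of 6268 values solved with the second gene taken by row position in a list without mitochondrial genes, against 9.17% in printed order. In 7 rows with several solutions (HSC82, HSP26, HSP12 and STI1 among the genes) the one nearest to the other library was taken, within 1 on the log2 scale. Of 6664 nuclear genes, 6644 were solved and 20 left out. The solving was tested on simulated data, which cannot test the reading by row position. No column of per-sample values was left unused.

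Recovered TPM values entered limma-trend (R 4.3.3, limma 3.58.1) as log2(TPM + 1), with a mean of at least 1 TPM and calls at an adjusted p below 0.05. The pseudocount makes fold changes of low genes too small. The planned design assumed TPM per sample, and the unit used is the recovered one. Both strains share replicate numbers in the titles, but the columns carry none. Alternatives were median-of-ratios factors, limma-voom, a pseudocount of 0.1, no filter, a mean of at least 10 TPM, each library left out, the deposited columns as printed and changes of list membership. Named genes are the 33 members, HSF1, MSN2, PCH2, NDT80 and, per further list, the genes called by either limma test or else the 1 of smallest p. The members and lists were chosen with earlier results of these data known. Promoters were read from RefSeq R64, where all 33 genes have the deposited coordinates. Intervals and the floor of 3 reads cover counting error only.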

Additional observations from a re-analysis of the deposited data

Results flagged for a closer look

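The 18 mitochondrially encoded genes, which no comparison above uses, carried 67253 recovered reads in ndt80 library A. No value of these genes was read for the other 3 libraries, and no comparison was made.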

How the results depend on the processing

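The number of genes called was 1 with limma-trend, 26 with limma-voom (17 higher, 9 lower) and 5 with a mean of at least 10 TPM; with 1 library left out it was 0 to 1 (0 without A and without B). None of 165 values of the 33 genes with all 4 libraries was called or changed sign. With 1 library left out, the lone library being assumed to vary like the other strain, 0 of 132 were called and 22 changed sign, in 13 genes. The relative log2 fold change of these then ran over the following ranges: HSP10 -0.33 to 0.019, HSP60 -0.10 to 0.031, HSP78 -0.048 to 0.12, HSP104 -0.024 to 0.10, SSA2 -0.14 to 0.10, SSA4 -0.015 to 0.27, FES1 -0.12 to 0.14, BTN2 -0.091 to 0.10, HSP26 -0.068 to 0.20, CTT1 -0.11 to 0.44, GRE1 -0.15 to 0.41, SOD1 -0.17 to 0.26 and MSN4 -0.036 to 0.14. The Hsf1-type median ran from -0.015 to 0.12 with 1 library left out and was 0.88 in the deposited columns as printed; the Msn2/4-type median ran from 0.19 to 0.44 and was 0.90 there. Leaving out genes of both kinds of control gave 0.086 and 0.39. Alternatives chosen after seeing the data (without genes of several solutions, of near-identical copies or with under 10 reads) gave 0.038 to 0.045 and 0.30, and the overlap of libraries after equal medians was also added then. Of 90 medians of the further lists, 15 moved by more than the spread between libraries. No paired analysis was possible because the deposited columns pool both samples of a strain and carry no replicate numbers. The count of genes called and the single genes were not tested in the deposited columns, which hold 1 value a strain. Depth limits DDR2 and HOR7, with at most 7 reads a library, and in the further lists PFD1, with 4 reads in each of C and D.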
